A study of Mus musculus with 6 samples.

Results

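The core transcription factors of the cardiac muscle lineage were followed in primary cardiomyocytes (CMs) of newborn mice treated with α-ketoglutarate (αKG). The members were all rows of the deposited RNA-seq table whose gene name is *Gata4*, *Nkx2-5*, *Tbx5*, *Tbx20*, *Hand2*, *Mef2a*, *Mef2c*, *Mef2d*, *Srf* or *Myocd*, which gave 10 of 20066 genes. CMs of C57BL/6 pups at postnatal days 0 to 1 were kept in culture for 96 h with 100 µM cell-permeable αKG, a Krebs cycle intermediate and cofactor of dioxygenases, or with its solvent dimethylsulfoxide (DMSO), and the labels give 3 libraries per group. The study's methods give a different concentration of an octyl ester of αKG and describe cultures from pooled hearts, plated after dissociation, and name no sort. By those methods a sample of neonatal CMs stands for 1 isolation, while the labels of these libraries do not state it, and the p-values measure the spread between these libraries. The series was made to ask how αKG acts on the maturation and proliferation of these cells.

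These factors bind DNA or, in the case of myocardin, bind a DNA-binding partner, and they switch on the contractile and signalling genes of the heart. GATA4 is a zinc-finger factor, NKX2-5 a homeodomain factor, TBX5 and TBX20 are T-box factors and HAND2 is a basic helix-loop-helix factor, and they bind in combination at cardiac enhancers. MEF2A, MEF2C and MEF2D share the MADS and MEF2 domains, and SRF is a further MADS-box factor that binds CArG boxes and recruits myocardin (encoded by *Myocd*) as its coactivator. Several of these genes are also active outside CMs, for example *Gata4*, *Tbx20* and *Hand2* in other heart cells and *Mef2c* in endothelium.

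The values were read counts that the authors had normalized for library depth and rounded, here called normalized counts, with 4069900 to 4168009 per library. The depth, read from the spacing of the low values, was 3725428 to 4428655 estimated reads in genes. αKG replicate 3 stood apart from its group. Across genes, its log2 values correlated at 0.977 to 0.98 with the DMSO libraries and at 0.962 and 0.963 with αKG replicates 1 and 2, so the fold changes of the factors and the counts of calls are also given without it. That library was singled out from the same values that are tested. The p-values and counts without it are therefore biased by this choice and describe its weight only, and are no evidence of a difference. DMSO replicates 2 and 3 differed by little more than counting noise (chi-square of 1.02 per gene), but 16 genes differed beyond it, and they were counted as separate samples.

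None of the 10 factors passed the threshold between αKG and DMSO, a Benjamini-Hochberg adjusted p under 0.05 over all genes in limma on log2(value + 1), where 3.78% of all genes passed, 0.952% of all genes with a lower and 2.83% with a higher value in αKG. By limma-voom on the estimated reads, 0 factors and 1.68% of all genes passed. The fitted difference was below 0 for 9 of the 10, with a median of -0.23 on the log2 scale, against 47.1% of all genes and a median of 0.04, and against 62.6% and a median of -0.08 in the genes with a mean of at least 100. At an unadjusted p under 0.05, 7 of 10 factors were lower in αKG, where 12.4% of all genes were, and 23.5% of the 8295 genes with a mean of at least 100, a level that all 10 factors reached. Without αKG replicate 3, 7 of the 10 passed the adjusted threshold and all 7 were lower, where 37.2% of all genes passed and 17.9% passed with a lower value. The shares without this library cover all genes, here and for the lists below. They were not taken among genes with a mean of at least 100, which may have a higher share. In 4 factors, *Tbx5*, *Hand2*, *Mef2a* and *Mef2d*, every αKG library was below every DMSO library, a pattern that 14.6% of all genes showed, as did 26.9% of those with a mean of 100 or more. In bulk RNA, fewer cells of a type and less RNA of a gene per cell cannot be told apart.

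**Figure D1:**
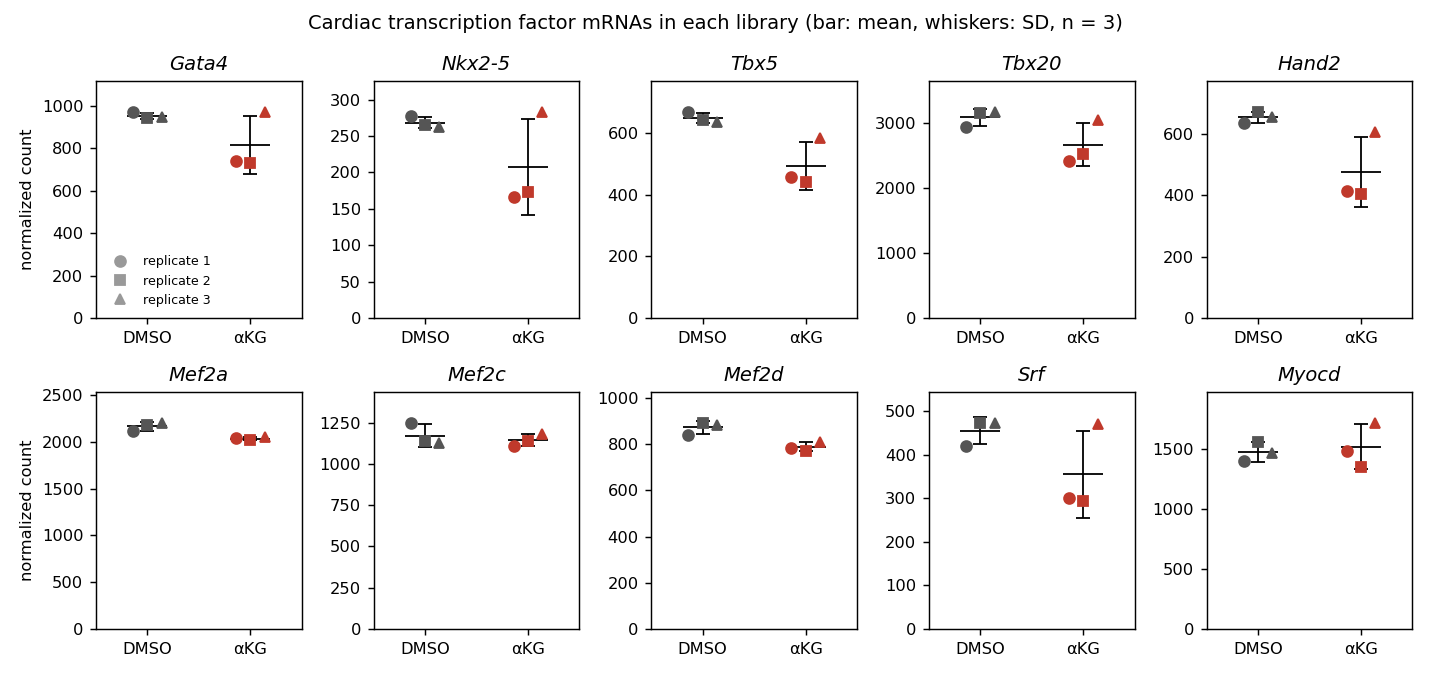
Normalized counts of the 10 factors (y axis, from 0) in the 3 DMSO and 3 αKG libraries, with the mean and SD of each group. In *Nkx2-5*, *Srf* and *Gata4*, αKG replicates 1 and 2 lie below all DMSO libraries and αKG replicate 3 lies within 10 counts of a DMSO library, whereas *Mef2a* is 2111 to 2205 in DMSO and 2015 to 2048 in αKG.

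Among the factors that specify the lineage, *Hand2* (ENSMUSG00000038193, GRCm38 chromosome 8, 57320983 to 57324633, plus strand), needed for growth of the right ventricle, showed normalized counts of 635, 672 and 656 across the DMSO libraries (replicates 1, 2, 3) and of 415, 405 and 608 across the αKG libraries in the same order. All 3 αKG libraries lay below DMSO, replicate 3 only just. The means were 654.3 ± 18.6 and 476 ± 114 (SD, n = 3 each). The log2 fold change, given throughout ± its SE, was -0.48 ± 0.14 with a 95% confidence interval from -0.80 to -0.17 (limma adjusted p = 0.0762). Without αKG replicate 3, the log2 fold change was -0.67 (limma adjusted p = 0.00054). The gene body of *Hand2os1*, a non-coding gene on the opposite strand, overlaps *Hand2*, and it had 836, 866 and 825 with DMSO and 992, 950 and 850 with αKG (log2 fold change 0.14 ± 0.07, limma adjusted p = 0.237). The authors left out reads that overlap more than 1 gene, and no source states whether strand was used, so reads of *Hand2* from the shared stretch may be missing from its counts.

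*Tbx5* (ENSMUSG00000018263, chromosome 5, 119832668 to 119885219, plus strand), the T-box factor of the atria and left ventricle, had 668, 642 and 637 normalized counts with DMSO and 456, 441 and 583 with αKG. The groups did not overlap, and replicate 3 lay between the DMSO range and the other αKG libraries. The log2 fold change was -0.41 ± 0.11 (limma adjusted p = 0.0609, 95% confidence interval -0.64 to -0.17), the smallest p of the 10 factors. Without αKG replicate 3 it was -0.53 (limma adjusted p = 0.000953). *Tbx20* (ENSMUSG00000031965, chromosome 9, 24718138 to 24774303, minus strand), needed for chamber and valve formation and for adult CM function, had 2937, 3162 and 3176 with DMSO and 2428, 2536 and 3047 with αKG. Here αKG replicate 3 lay within the DMSO range. The log2 fold change was -0.22 ± 0.08 (limma adjusted p = 0.129), and -0.32 without αKG replicate 3 (limma adjusted p = 0.00354).

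*Gata4* (ENSMUSG00000021944, chromosome 14, 63198922 to 63271692, minus strand) had 970, 945 and 948 normalized counts with DMSO and 740, 731 and 972 with αKG. Replicates 1 and 2 were thus well below the control libraries and replicate 3 was above all of them. The log2 fold change was -0.24 ± 0.10 (limma adjusted p = 0.167), and -0.38 without αKG replicate 3 (limma adjusted p = 0.0013). *Nkx2-5* (ENSMUSG00000015579, chromosome 17, 26838664 to 26845009, minus strand), an early marker of heart progenitors and the factor with the lowest counts, had 277, 265 and 263 with DMSO and 166, 173 and 283 with αKG. Its pattern was that of *Gata4*, with a wider gap. The log2 fold change was -0.41 ± 0.18 (limma adjusted p = 0.172, 95% confidence interval -0.82 to -0.01), and -0.66 without αKG replicate 3 (limma adjusted p = 0.00119).

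The 3 MEF2 factors, which relay calcium and stress signals to muscle genes, lay closer to the controls. *Mef2a* (ENSMUSG00000030557, chromosome 7, 67231163 to 67372858, minus strand) had 2111, 2182 and 2205 normalized counts with DMSO and 2038, 2015 and 2048 with αKG. *Mef2d* (ENSMUSG00000001419, chromosome 3, 88142372 to 88172086, plus strand) had 840, 894 and 886 with DMSO and 786, 773 and 810 with αKG. In both genes the 3 αKG libraries were alike and below DMSO, replicate 3 included. The log2 fold changes were -0.09 ± 0.05 for *Mef2a* (limma adjusted p = 0.259) and -0.14 ± 0.06 for *Mef2d* (limma adjusted p = 0.17). *Mef2c* (ENSMUSG00000005583, chromosome 13, 83504034 to 83667080, plus strand) had 1249, 1135 and 1123 with DMSO and 1106, 1141 and 1182 with αKG. Its groups overlapped (log2 fold change -0.03 ± 0.07, limma adjusted p = 0.776, 95% confidence interval -0.18 to 0.12). Of the summed counts of the 3 genes, not scaled for length, *Mef2a* held 50.3% to 52.3% in DMSO and 50.7% to 51.9% in αKG, so the ranges overlapped. Without αKG replicate 3, *Mef2d* passed (-0.16, limma adjusted p = 0.0304) and *Mef2a* and *Mef2c* did not (-0.10 and -0.06, limma adjusted p = 0.063 and 0.466). *Lysmd4*, on the opposite strand, and Gm44667 and Gm44668 on the same strand overlap *Mef2a*, and 1700113A16Rik overlaps *Mef2d* from the opposite strand. Reads from the shared stretches may likewise be missing from these counts. None of these 4 genes passed (limma adjusted p from 0.0869 to 0.305).

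*Srf* (ENSMUSG00000015605, chromosome 17, 46548329 to 46556175, minus strand) had 421, 473 and 474 normalized counts with DMSO and 301, 294 and 470 with αKG. αKG replicates 1 and 2 were below every control and replicate 3 was within their range. The log2 fold change was -0.39 ± 0.16 (limma adjusted p = 0.154), and -0.61 without αKG replicate 3 (limma adjusted p = 0.00181). Its coactivator gene *Myocd* (ENSMUSG00000020542, chromosome 11, 65176561 to 65269989, minus strand) had 1401, 1563 and 1465 with DMSO and 1486, 1354 and 1721 with αKG. Here αKG replicate 1 lay within the DMSO range, replicate 2 below it and replicate 3 above it (log2 fold change 0.04 ± 0.09, limma adjusted p = 0.809, 95% confidence interval -0.16 to 0.23). When αKG replicate 3 was left out, the log2 fold change of *Myocd* was -0.06 (limma adjusted p = 0.507). The ratio of *Srf* to *Myocd* within a library, chosen after the values were seen, does not depend on depth scaling. It was 0.3, 0.303 and 0.324 in DMSO and 0.203, 0.217 and 0.273 in αKG, lower in all 3 αKG libraries by 0.43 on the log2 scale (two-sided exact permutation p = 0.1, the smallest that 3 against 3 libraries allow). Of the 3 ratios computed, the other two, *Tbx5* to *Tbx20* and *Mef2a* to *Mef2d*, differed by -0.19 and 0.05 with the same exact permutation p of 0.1, which stays 0.1 after Benjamini-Hochberg adjustment. With the correction for transcript GC content and length the differences of the ratios were -0.29 for *Srf* to *Myocd*, 0.03 for *Tbx5* to *Tbx20* and -0.20 for *Mef2a* to *Mef2d*, so the sign turned for *Tbx5* to *Tbx20* and for *Mef2a* to *Mef2d*.

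**Figure D2:**
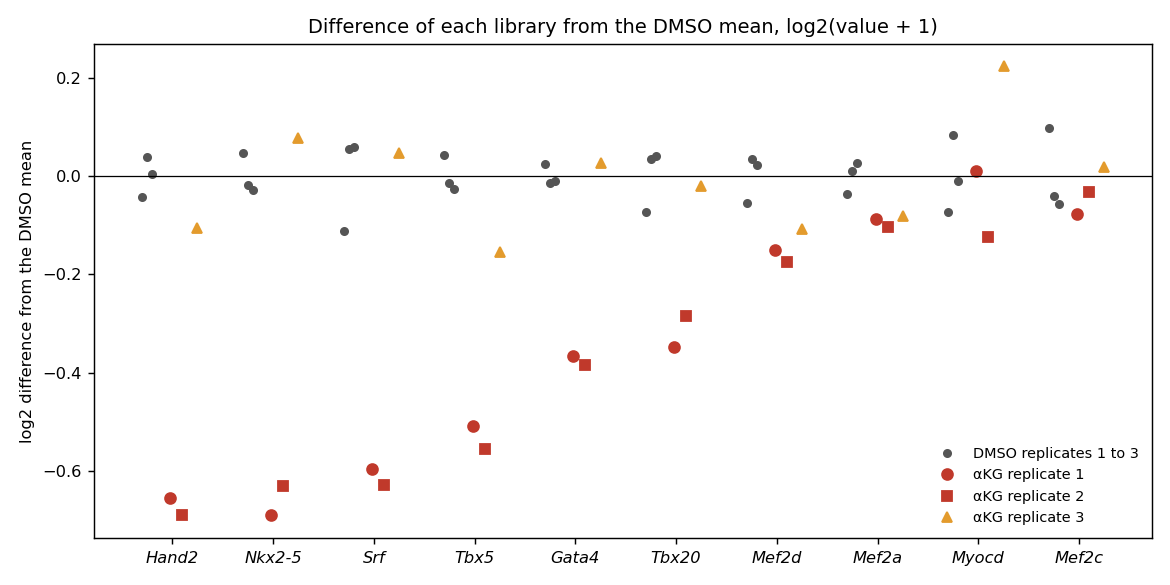
Difference of each library from the DMSO mean on the log2(value + 1) scale (y axis) for each factor (x axis), ordered by the mean of αKG replicates 1 and 2. From *Hand2* to *Tbx20*, αKG replicates 1 and 2 lie 0.28 to 0.69 below the DMSO mean, whereas αKG replicate 3 lies between -0.15 and 0.08 in these 6 genes.

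The library differences formed 2 sets of factors, drawn after the values were seen. In *Hand2*, *Nkx2-5*, *Srf*, *Tbx5*, *Gata4* and *Tbx20*, the mean of αKG replicates 1 and 2 was 0.32 to 0.67 below the DMSO mean on the log2 scale, and no DMSO library deviated from the DMSO mean by more than 0.113. In *Mef2d*, *Mef2a*, *Myocd* and *Mef2c* the same distance was 0.06 to 0.16. Between members, the most alike profiles over the 6 libraries were those of *Mef2a* and *Mef2d* (root mean square difference of centred log2 values 0.033), *Gata4* and *Tbx20* (0.065), and *Hand2* and *Srf* (0.066). The difference between αKG replicate 3 and the DMSO mean was above 0 in *Myocd*, *Nkx2-5*, *Srf*, *Gata4* and *Mef2c* and below 0 in the other 5.

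The promoters of 4 factors are shown as sequence, since they represent both sets, *Srf*, *Hand2* and *Nkx2-5* with the widest gaps and *Mef2a* with a narrow one. Each window runs from 250 bases before to 50 after a RefSeq transcription start (GRCm38.p6), 5′ to 3′ on the gene's strand. Capitals mark matches, on either strand, to AGATAA for the GATA factors, to AAGTG for NKX2-5, to AGGTGT for the T-box factors, to CATCTG for HAND2, or to the MEF2 site or the CArG box by name. No matches overlapped.
*Srf*, chr17:46556113-46556412: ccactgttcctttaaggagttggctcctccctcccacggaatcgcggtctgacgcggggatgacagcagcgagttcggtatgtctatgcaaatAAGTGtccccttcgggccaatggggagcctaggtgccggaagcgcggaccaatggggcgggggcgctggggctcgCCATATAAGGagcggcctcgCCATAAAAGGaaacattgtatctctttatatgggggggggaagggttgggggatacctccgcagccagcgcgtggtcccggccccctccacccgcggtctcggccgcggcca
*Hand2*, chr8:57320733-57321032: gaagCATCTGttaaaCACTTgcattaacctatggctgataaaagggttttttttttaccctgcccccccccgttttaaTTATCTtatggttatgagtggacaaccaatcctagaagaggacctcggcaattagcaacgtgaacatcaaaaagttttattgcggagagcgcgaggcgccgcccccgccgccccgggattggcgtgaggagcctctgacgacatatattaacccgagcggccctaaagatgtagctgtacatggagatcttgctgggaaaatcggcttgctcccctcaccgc
*Nkx2-5*, chr17:26841516-26841815: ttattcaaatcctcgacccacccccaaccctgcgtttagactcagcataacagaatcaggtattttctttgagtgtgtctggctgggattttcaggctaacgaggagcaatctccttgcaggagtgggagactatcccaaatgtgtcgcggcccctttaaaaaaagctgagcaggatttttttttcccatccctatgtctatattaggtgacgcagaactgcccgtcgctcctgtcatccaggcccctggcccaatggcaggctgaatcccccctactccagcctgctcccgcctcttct
*Mef2a*, chr7:67372809-67373108: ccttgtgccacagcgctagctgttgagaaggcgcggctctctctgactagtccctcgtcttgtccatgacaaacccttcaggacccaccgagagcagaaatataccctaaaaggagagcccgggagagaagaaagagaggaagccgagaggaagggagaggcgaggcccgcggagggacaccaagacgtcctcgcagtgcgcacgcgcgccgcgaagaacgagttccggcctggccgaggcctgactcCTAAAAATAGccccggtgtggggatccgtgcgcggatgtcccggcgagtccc

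The *Srf* window held 1 NKX2-5 motif and 2 CArG boxes, the motif that SRF itself binds, and 1.63% of 32851 promoter windows of this length held at least 1. The *Mef2a* window held 1 MEF2 site, which 3.19% of windows held. In the *Hand2* window there was 1 match each to the GATA, NKX2-5 and HAND motifs, which 11.2%, 46.4% and 17.2% of windows held, and in the *Nkx2-5* window there was 0. The *Nkx2-5* window lies inside the annotated gene and does not cover its 5′ end at 26845009. The GC content of the windows was 63.3% for *Srf*, 50.3% for *Hand2*, 51.7% for *Nkx2-5* and 62.3% for *Mef2a*. It was 68.3% for *Tbx20*, 72% for *Mef2d* and 35.7%, 47% and 48.3% for the windows of *Mef2c*, so it did not follow the 2 sets. In all, 7 of the 10 factors had a window in the table, those of *Tbx20* and *Mef2d* had 0 matches, and each of the 3 windows of *Mef2c* held 1 NKX2-5 motif. The *Mef2c* window that starts at 83523406 also held 1 T-box match (13.7% of windows), and the one at 83573357 also held 1 HAND match. A match is a run of letters and not a measured binding site.

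Levels can be compared between genes only per length, and were taken as normalized counts per kb of annotated exon, all isoforms merged. By this length, *Hand2* was highest in DMSO with 278 ± 7.89, then *Tbx20* with 258 ± 11.2, *Gata4* with 244 ± 3.5 and *Myocd* with 230 ± 12.7. These 4 lay above 97.1% to 98.4% of the 13403 genes of known exon length whose mean reached 10. A second tier held *Srf* (158 ± 10.5), *Nkx2-5* (156 ± 4.40), *Mef2a* (148 ± 3.34), *Mef2d* (146 ± 4.87) and *Tbx5* (139 ± 3.56). *Mef2c* was lowest with 74.4 ± 4.43. The DMSO ranges of neighbours overlapped in this order from *Tbx20* to *Myocd*, between *Srf* and *Nkx2-5*, and from *Mef2a* to *Tbx5*, and did not overlap between the other neighbours. In αKG the order of the means was led by *Myocd* (237 ± 28.9), *Tbx20* (223 ± 27.6), *Gata4* (209 ± 35.0) and *Hand2* (202 ± 48.7). The order depends on the length used. Per kb of the longest transcript, a choice added after the values were seen, *Mef2a* was highest in DMSO with 391 ± 8.85, then *Tbx20* with 340 ± 14.8, *Myocd* with 289 ± 16.0, *Gata4* with 281 ± 4.01 and *Hand2* with 278 ± 7.89, *Mef2c* was sixth with 186 ± 11.1, and *Mef2d* was lowest with 162 ± 5.40.

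**Figure D3:**
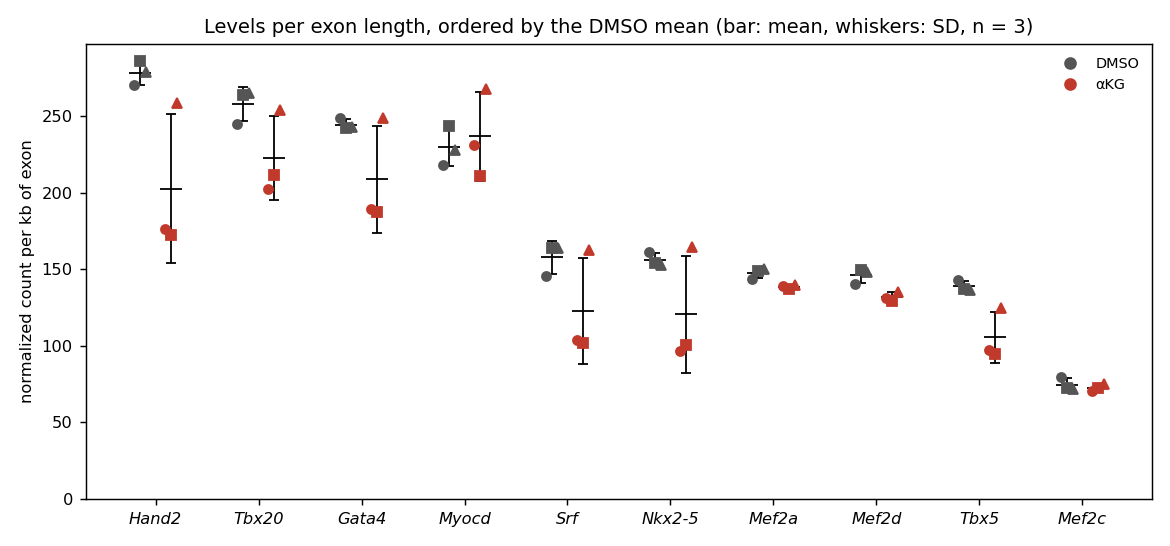
Normalized counts per kb of exon (y axis) for the 10 factors, ordered by the DMSO mean, with each library, the mean and the SD. *Hand2* goes from 278 per kb in DMSO to 202 in αKG, whereas *Myocd* stays between 211 and 268 in αKG against 218 to 243 in DMSO.

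The factors also differed in the base composition and length of their transcripts, but not strictly along these sets. The longest transcripts of *Nkx2-5*, *Srf*, *Hand2* and *Gata4* had a GC content of 67.1%, 64.4%, 59.3% and 57.4%, above 91.4% to 99.9% of the 8294 genes of known length whose mean reached 100, whose median was 48.7%. *Mef2d*, *Tbx5* and *Myocd* had 55%, 51.3% and 49.9%, and *Tbx20*, *Mef2a* and *Mef2c* had 42.3%, 42% and 40.8%. *Nkx2-5*, *Hand2* and *Srf* had short exon lengths of 1719, 2351 and 2893 bp, *Gata4*, *Tbx5*, *Mef2d* and *Myocd* had 3904, 4675, 5985 and 6424 bp, and *Tbx20*, *Mef2a* and *Mef2c* had 11997, 14681 and 15715 bp. Thus *Mef2d* was richer in GC than *Tbx5*, and *Tbx20* was long and poor in GC. Across the 10 factors, the mean difference of αKG replicates 1 and 2 from DMSO had a Spearman correlation of -0.85 with GC content and 0.92 with exon length, as a description of 10 genes of the same libraries. Over the 8294 genes the values were -0.19 and 0.34. The median difference of genes with exons shorter than 2000 bp was -0.35 and -0.19 in αKG replicates 1 and 2 and -0.07 in replicate 3, and that of genes of at least 14000 bp was 0.20 in both and 0.03 in replicate 3.

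When smooth curves on GC content and exon length were removed from each library, the sets drew together. The fitted log2 fold changes were then -0.43 for *Hand2*, -0.42 for *Tbx20*, -0.39 for *Tbx5*, -0.35 for *Mef2c*, -0.33 for *Mef2a*, -0.29 for *Nkx2-5*, -0.27 for *Srf*, -0.22 for *Gata4*, -0.13 for *Mef2d* and 0.01 for *Myocd*. *Tbx5* and *Mef2a* passed the threshold (limma adjusted p = 0.0492 and 0.0396), where 6.21% of all genes did. With the libraries also blocked by replicate number, *Tbx20* passed too (limma adjusted p = 0.0263), where 8.65% of all genes did. *Mef2c* moved most, from -0.03 to -0.35 (limma adjusted p = 0.0733), and *Myocd* stayed near 0. The part that GC content and length of transcripts had in the uncorrected differences was not tested beyond this.

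**Figure D4:**
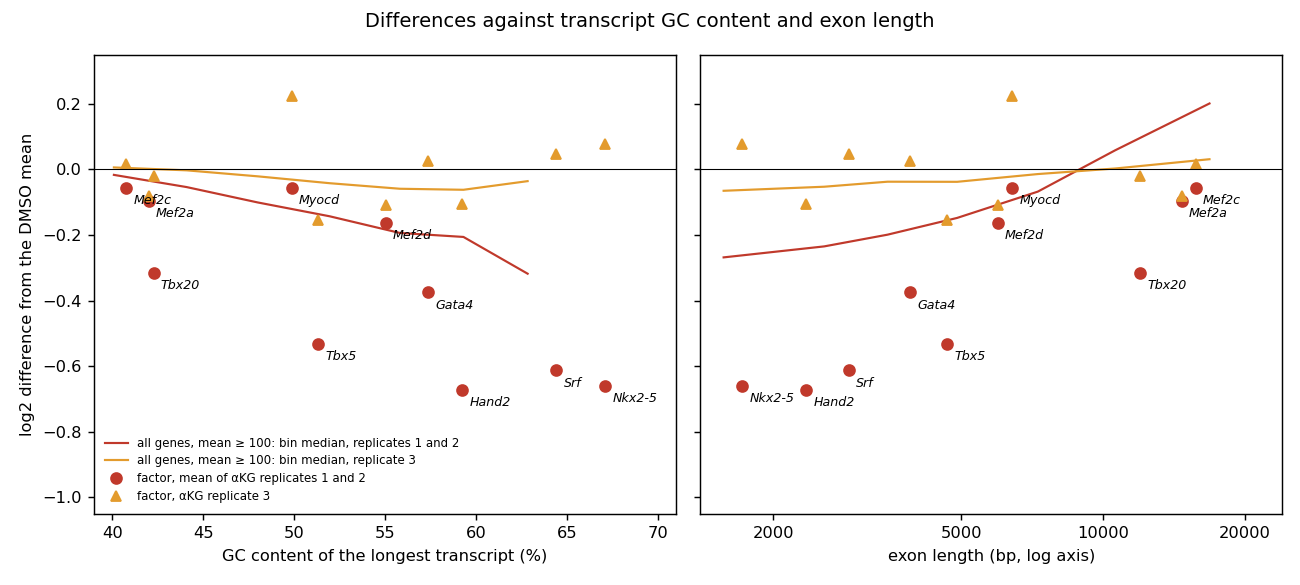
Difference from the DMSO mean on the log2 scale (y axis) against transcript GC content (left) and exon length on a log axis (right). Points are the 10 factors, circles for the mean of αKG replicates 1 and 2 and triangles for replicate 3, and lines are the bin medians of all genes with a mean of at least 100. *Nkx2-5*, *Srf* and *Hand2*, short and rich in GC, lie at -0.66, -0.61 and -0.67, below the bin medians.

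By a fixed rule, among genes whose mean reached 100, those with the profile nearest to that of the 3 factors with the smallest p were named, using the root mean square difference of centred log2 values over the 6 libraries. For *Tbx5* these were *Ythdf2* (0.023), *Mgat4b* (0.026) and *Ddx19a* (0.026). For *Hand2* they were *Ndufaf1* (0.029), *Cluh* (0.036) and *Kctd12* (0.037), and for *Tbx20* they were *Gpalpp1* (0.015), *Dcaf10* (0.016) and *Zfp120* (0.022). None of these 9 genes passed the threshold (limma adjusted p from 0.0592 to 0.227), and each was nearest among 8294 candidates.

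Of 11 genes of the same families, 9 were listed and 1 was lower in αKG past the threshold (0.952% of all genes). The list median was -0.38 on the log2 scale. It is the value of *Tbx2*, which had 9 to 23 normalized counts and an SE of 0.38. *Gata5*, *Mef2b* and *Hand1* were also near the floor, with at most 4, 4 and 19. *Tbx18* was above DMSO in all αKG libraries (0.26 ± 0.09, limma adjusted p = 0.11). The gene past the threshold was *Tbx3*, the T-box repressor of the conduction system, with 117, 108 and 104 normalized counts with DMSO and 60, 65 and 79 with αKG (log2 fold change -0.69 ± 0.16, limma adjusted p = 0.0451). All 3 αKG libraries were lower. The call of *Tbx3* was lost with limma-voom (limma adjusted p = 0.0568), a pseudocount of 0.1 (0.0559), no variance trend (0.131), the replicate block (0.105), and on leaving out any single library but αKG replicate 3 (0.179 to 0.255). *Gata6*, the close relative of *Gata4*, had 859, 862 and 881 against 530, 565 and 824 and did not pass (-0.47 ± 0.14, limma adjusted p = 0.0843), with αKG replicate 3 nearer to DMSO than the other two. Of the 9, 4 passed without αKG replicate 3, where 37.2% of all genes did. The SRF coactivators *Mrtfa* and *Mrtfb* did not pass either (-0.07 and -0.19, limma adjusted p = 0.783 and 0.232).

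Of 20 partner and further cardiac transcription factors, 1 was lower past the threshold, 7 were lower at an unadjusted p under 0.05 (12.4% of all genes) and 16 had a fitted difference below 0 (47.1% of all genes), with a median of -0.18. Among genes with a mean of at least 100, 23.5% were lower at an unadjusted p under 0.05 and 62.6% were below 0. Most but not all of the 20 reached that level. Of the 20, 10 passed without αKG replicate 3 (37.2% of all genes). *Irx3*, an Iroquois factor of the ventricular conduction system, had 656, 656 and 697 normalized counts with DMSO and 406, 418 and 547 with αKG (log2 fold change -0.56 ± 0.11, limma adjusted p = 0.036). Its call was lost with a pseudocount of 0.1 (limma adjusted p = 0.0503), no variance trend (0.172), the replicate block (0.0785), and on leaving out any single library but αKG replicate 3 (0.141 to 0.259). *Irx4*, *Irx5*, *Hey2* and *Hopx*, named after their values were seen, had larger fitted differences of -0.80, -0.93, -0.86 and -0.73 that did not pass (limma adjusted p from 0.0715 to 0.0928). In *Irx4*, a ventricular factor, αKG replicates 1 and 2 had 277 and 276 against 616, 592 and 615 in DMSO, and replicate 3 had 551. The GATA4 cofactor gene *Zfpm2* had 690, 741 and 702 with DMSO and 662, 695 and 710 with αKG, and the groups overlapped. Of 16 enzymes and cofactors that act on MEF2, SRF or GATA4, *Camk2d*, a kinase that relieves the repression of MEF2 by class IIa histone deacetylases, was higher in αKG past the threshold (1834, 1906 and 1793 against 2613, 2705 and 2079, log2 fold change 0.41 ± 0.09, limma adjusted p = 0.0446), and the other 15 did not pass. With the GC and length correction *Camk2d* had a log2 fold change of 0.17 and did not pass (limma adjusted p = 0.0887), nor did it with limma-voom (limma adjusted p = 0.0615) or a pseudocount of 0.1 (limma adjusted p = 0.0608), and without αKG replicate 3, 3 of the 16 passed (37.2% of all genes).

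Known target genes of the factors were counted in the same way. Some of them, *Acta1*, *Nppa*, *Nppb* and *Tnni3*, are named by the study for cells treated with αKG and are no independent evidence of a direction. The study also names *Myh7* and, of the core factors, *Myocd*. It reports *Acta1*, *Nppa*, *Nppb* and *Myh7* as elevated with αKG and *Tnni3* and *Myocd* as reduced. Here *Acta1*, *Nppb* and *Myh7* were higher past the threshold, and *Nppa* did not pass (0.32 ± 0.14, limma adjusted p = 0.173). Neither *Tnni3* (-0.05 ± 0.06, limma adjusted p = 0.639) nor *Myocd* (0.04 ± 0.09, limma adjusted p = 0.809) passed, so a reduction of these genes was not seen in this fit. The study's methods call genes at a p under 0.05 and name no adjustment, a less strict threshold than the adjusted p used here. With an unadjusted p under 0.05 in this fit, *Nppa* was also higher, and *Tnni3* and *Myocd* still did not pass. The study cites a further figure for these genes beside its RNA-seq data, which was not compared here. Of 23 SRF targets, 4 were higher past the threshold and 0 were lower, where 2.83% and 0.952% of all genes were. A fitted difference above 0 was found in 20 of the 23 (median 0.30), against 10611 of all 20066 genes. Among genes with a mean of at least 100, a level that not all of the 23 reached, 62.6% were below 0. Of the 23, 13 passed in either direction without αKG replicate 3 (37.2% of all genes). *Acta1*, skeletal α-actin, had 68, 78 and 84 normalized counts with DMSO and 429, 481 and 239 with αKG (log2 fold change 2.25 ± 0.23, limma adjusted p = 0.00335). *Cnn1*, calponin, had 5, 10 and 12 against 119, 167 and 30 (3.17 ± 0.57, limma adjusted p = 0.0279), and *Myl9*, a regulatory myosin light chain, 306, 289 and 300 against 417, 458 and 452 (0.57 ± 0.08, limma adjusted p = 0.0133). In *Acta1*, *Cnn1* and *Myl9* all αKG libraries, replicate 3 included, were above DMSO. With limma-voom *Cnn1* did not pass (limma adjusted p = 0.0945), and with no variance trend none of *Acta1*, *Cnn1* and *Myl9* did (limma adjusted p = 0.102, 0.145 and 0.109). With the replicate block *Acta1* passed (limma adjusted p = 0.0425) and *Cnn1* and *Myl9* did not (0.0884 and 0.0751). *Fhl1* was the remaining gene past the threshold, with 367, 463 and 455 against 917, 1077 and 541 (0.93 ± 0.21, limma adjusted p = 0.0477). *Egr1*, an early response gene among the SRF targets, was below DMSO in all αKG libraries, with 313, 320 and 329 with DMSO and 259, 245 and 254 with αKG (-0.34 ± 0.08, limma adjusted p = 0.0536).

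Of 10 MEF2 targets, *Xirp2*, an actin-binding protein of the intercalated disc, was higher past the threshold (1243, 1798 and 1617 normalized counts against 5817, 6504 and 3182, log2 fold change 1.69 ± 0.23, limma adjusted p = 0.0111), and 0 were lower. The list median was -0.07. *Smyd1*, a muscle methyltransferase gene under MEF2C, and *Ppargc1a*, a coactivator of mitochondrial genes, did not pass (-0.27 and -0.33, limma adjusted p = 0.124 and 0.0689). Of 12 targets of GATA4, NKX2-5 or TBX5, *Nppb*, which encodes B-type natriuretic peptide, was higher past the threshold (68, 110 and 108 against 252, 357 and 272, 1.63 ± 0.20, limma adjusted p = 0.0071). The other 11 did not pass, and the list median was 0.09. The call of *Xirp2* was lost with the replicate block (limma adjusted p = 0.0542) and that of *Nppb* was not (0.0304). All 8 named genes of these lists, *Tbx3*, *Irx3*, *Camk2d*, *Acta1*, *Cnn1*, *Myl9*, *Xirp2* and *Nppb*, lost their call with no variance trend, with DMSO replicates 2 and 3 averaged, and without DMSO replicate 2, DMSO replicate 3, αKG replicate 1 or αKG replicate 2. Without αKG replicate 3, 7 of the 10 MEF2 targets and 8 of these 12 genes passed in either direction (37.2% of all genes). *Gja5*, the connexin gene that TBX5 and NKX2-5 activate, had 46, 52 and 41 with DMSO and 20, 11 and 38 with αKG (-1.14 ± 0.38, limma adjusted p = 0.103).

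**Figure D5:**
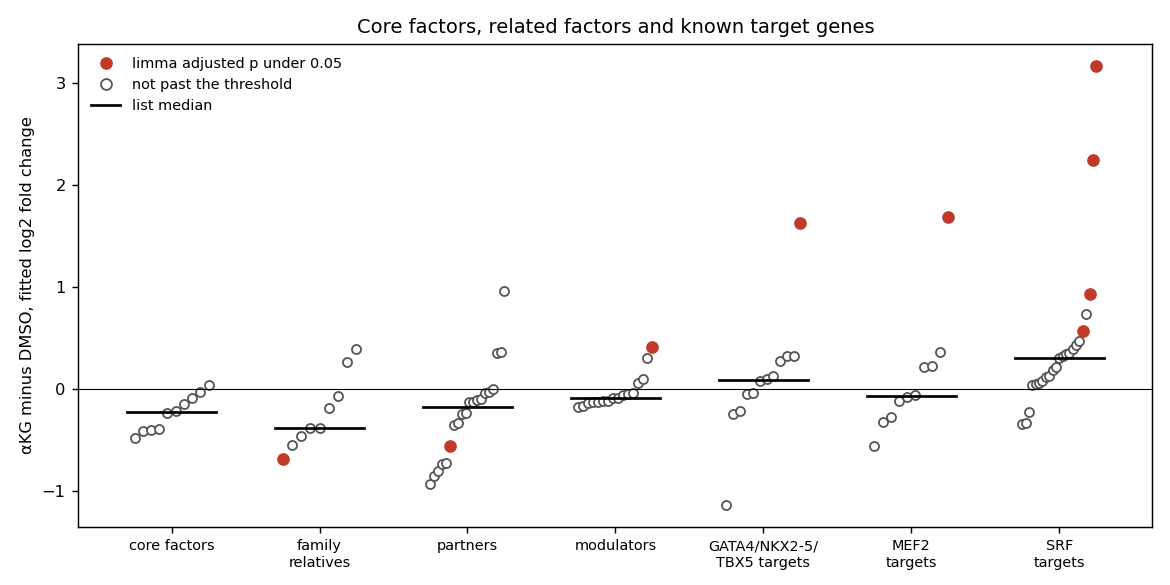
Fitted log2 fold change of αKG against DMSO (y axis) for each gene of the core factors and of 6 lists of related genes, filled where the limma adjusted p was under 0.05, with the list median as a bar. The core factors have 0 filled points and a median of -0.23, and the SRF targets have 4 filled points, all above 0, and a median of 0.30.

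Markers of CMs and of other heart cells were summed per library. CM markers were present in every library, with 11 of 11 listed and a summed 65738 to 68125 normalized counts with DMSO and 97329, 100798 and 70017 with αKG, most of it *Ttn*, and 1 of them was higher past the threshold, *Myh7* (453, 641 and 550 against 2535, 2732 and 1157). The 11 fibroblast markers summed to 3761 to 3944 in DMSO and to 8372, 8122 and 3793 in αKG replicates 1 to 3, led by *Col1a1* and *Col1a2*, and 0 of them passed. The 10 epicardial markers summed to 220 to 250 in DMSO and to 924, 925 and 174, and 0 passed, with *Muc16* at 0 in αKG replicate 3. Of the 12 endothelial markers, 8 were lower past the threshold (0.952% of all genes). Their sum was 2322 to 2428 with DMSO and 1733, 1602 and 1613 with αKG, and *Cldn5* was at 0 in 1 DMSO and 1 αKG library. Without αKG replicate 1 or without αKG replicate 2, 0 of all genes passed, so no marker kept its call. The 7 mural markers summed to 3427 to 3556 and to 3983, 3497 and 3802, with *Cspg4* higher past the threshold and *Kcnj8* at 0 in αKG replicate 3. Of 12 macrophage markers 5 were listed, with sums of 23 to 35 and 26 to 41, and 0 passed, with *Cd14* at 0 in DMSO replicate 1 and αKG replicate 2 and *Csf1r* at 0 in αKG replicate 3. Their part in the differences of the factors was not tested.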

How the data were processed

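Per the labels and the study's methods, total RNA was extracted with DNase digestion and made into libraries with a stranded total RNA kit. The submitters' processing notes name Trimmomatic 0.39, STAR 2.7.10a, featureCounts 2.0.3, DESeq2 1.30.1 and the build mm10 (GRCm38). By the methods, the authors trimmed and aligned reads, summed those touching exons by gene, dropped any read with more than 1 gene or position, and normalized for depth. The deposited values are normalized counts rounded to whole numbers, so they were handled as a score and not as raw counts.

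All 20066 genes and 6 libraries entered 1 limma fit (limma 3.58.1, R 4.3.3) of log2(value + 1) on treatment, with a variance trend, no filter and Benjamini-Hochberg adjustment over all genes. Fold changes are thus on the log2(value + 1) scale. Figures were drawn in Python 3.11.15. The value of 1 read per library was estimated from which whole numbers occur, tested on simulated data, and used for depth and for limma-voom. No source names molecular identifiers, so the comparison with counting noise covers counting error only. Exon length and GC content came from GENCODE M21, in which 98.95% of genes had identical positions, and promoters from RefSeq (GRCm38.p6).

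The members and gene lists were chosen with earlier results of these data known. Named genes were all members, from each list up to 3 genes with the smallest p past the threshold, or the 2 with the highest mean where none passed, the nearest profiles, and, of the marker lists, the sums and some leading genes. *Gata6*, *Mrtfa*, *Mrtfb*, *Tbx2*, *Tbx18*, *Gata5*, *Mef2b*, *Hand1*, *Irx4*, *Irx5*, *Hey2*, *Hopx*, *Zfpm2*, *Fhl1*, *Egr1*, *Smyd1*, *Ppargc1a*, *Nppa*, *Tnni3* and *Gja5*, the genes overlapping a member, and markers at 0 or past the threshold were named after their values were seen. Alternatives were a filter, pseudocounts of 0.1 and 5, 2 scalings, no variance trend, limma-voom, a replicate block, a GC and length correction, averaging DMSO replicates 2 and 3, no adjustment, and leaving out each library.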

Additional observations from a re-analysis of the deposited data

How the results depend on the processing

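The 3 libraries a group, with 3725428 to 4428655 estimated reads each, limit the precision. Against 0 of 10 core factors past the threshold, 2 passed with the GC and length correction (*Tbx5*, *Mef2a*), 3 with this correction and the replicate block (*Tbx20* added), 7 without adjustment and 0 to 7 over the fits that each left out 1 library, the 7 being without αKG replicate 3. The median of the factors, -0.23, kept its sign in all 17 alternative fits and ranged from -0.35 to -0.17 over those without 1 library. For the lists in the order relatives, partners, modulators, SRF targets, MEF2 targets and targets of GATA4, NKX2-5 or TBX5, and then for all genes, 1, 1, 1, 4, 1, 1 and 759 genes passed. Without adjustment 3, 7, 3, 10, 5, 6 and 5648 had a p under 0.05. Leaving out 1 library at a time gave 0 to 4, 0 to 10, 0 to 3, 0 to 13, 0 to 7, 0 to 8 and 0 to 7466, the highest always without αKG replicate 3, and for all genes the counts were 152, 3 and 4 without DMSO replicates 1, 2 and 3 and 0 without αKG replicate 1 or 2. In the same order, 0, 0, 0, 0, 0, 0 and 27 passed without the variance trend, 0, 0, 0, 0, 0, 0 and 19 when DMSO replicate 2 was averaged with replicate 3 (a fit with fewer samples), and 0, 0, 0, 1, 0, 1 and 46 with the replicate block. With a pseudocount of 0.1, relatives, partners and modulators had 0 and all genes 346. With limma-voom, relatives had 0, modulators 0, SRF targets 2 and all genes 338. With the GC and length correction, modulators had 0, MEF2 targets 2, targets of GATA4, NKX2-5 or TBX5 2 and all genes 1247, and with the block added 0, 2, 2 and 1735, with 2 relatives and 5 partners. Of 180 values of single factors under an alternative, 157 kept sign and side of the threshold, 19 gained a call and 4 reversed: *Mef2c* was 0.017 without DMSO replicate 1 (-0.059 to 0.017 over the fits without 1 library), and *Myocd* was -0.019 with quantile normalization, -0.0003 without DMSO replicate 1 and -0.056 without αKG replicate 3 (-0.056 to 0.12), each with no call. Of 144 values of the 8 other genes named by the rule, 68 lost their call and none reversed. For the replicate block, same-numbered libraries of the groups deviated from their group means with correlations of -0.035, 0.057 and 0.017, and 3 of 6 libraries correlated best with their own number, and the numbers were not taken as pairs. The cause of these changes was not tested.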
